A study of Mus musculus with 3 samples.

Results

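Hepatocyte nuclei of the Aza-TdC library were compared with hepatocyte nuclei of the MASLD library. Hepatocyte nuclei were those with at least as many unique molecular identifiers (UMIs, each standing for 1 captured RNA molecule) as the shallowest barcode of the standard diet library, at most 5% of UMIs from mitochondrial genes, and at most 2 UMIs summed over Stab2, Ptprb, Clec4f, Cd5l, Adgre1, Reln, Ntm, Skap1 and Gpm6a, which are genes of other liver cells. The rule kept 6784 nuclei in Aza-TdC and 6032 in MASLD, which is 12816 of the 14526 barcodes of both libraries and of the 21665 barcodes of the whole series. All mice were male C57BL/6N animals, 8 weeks old when they were assigned to groups. The MASLD group received a diet that models metabolic dysfunction-associated steatotic liver disease, with sugar in the drinking water, for 18 weeks. The Aza-TdC group received the same diet and drink, and from week 14 to week 18 also the thio-deoxycytidine analogue Aza-TdC at 2 mg per kg daily by gavage. A standard diet library (SD), with 6837 hepatocyte nuclei by the same rule, is given beside them for its levels. The sources used here do not say whether the MASLD mice were gavaged with vehicle.

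Aza-TdC is a nucleoside analogue of deoxycytidine that is built into newly made DNA and depletes DNMT1, the enzyme that copies DNA methylation onto the new strand when DNA is replicated. Loss of methylation at a CG-rich promoter can allow transcription of a gene that methylation had kept silent. In steatotic liver, hepatocytes store triglyceride in lipid droplets whose surface is covered by droplet proteins, and fat uptake and droplet genes are among those that such diets are known to raise in mice.

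Each group was 1 library, and the sources used here do not give its number of animals. No test between groups was therefore possible, treatment and library cannot be told apart, and each interval below is a 95% interval that covers counting error only. The summed depth was 43888919 UMIs for SD, 41364145 for MASLD and 49637517 for Aza-TdC, with medians per nucleus of 5912, 6360 and 6766.5. All 15 hepatocyte marker genes were above 10 CPM (UMIs of a gene scaled to a common library total of 1e6) in every library, the lowest being Cebpa, with 42.3 CPM for SD, 85.3 for MASLD and 52.6 for Aza-TdC. The libraries differed in free or cytoplasmic RNA. The median mitochondrial share of hepatocyte nuclei was highest in MASLD at 0.19%, 0.124% in SD and lowest in Aza-TdC at 0.0816%. In hemoglobin the MASLD library stood apart, with a hemoglobin UMI in 79.0% of its hepatocyte nuclei, against 11.9% in SD and 21.1% in Aza-TdC. The MASLD and Aza-TdC libraries shared 15 cell barcodes.

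In the sums over nuclei, 14341 genes had at least 50 UMIs over both libraries and are called measured. Of these, 271 (1.89%) were at least 2 times higher in Aza-TdC and 682 (4.76%) were at least 2 times lower, that is, past a log2 ratio of 1 or -1 of the CPM in Aza-TdC over that in MASLD. Those shares are the background for the gene groups below. The median ratio of all measured genes was -0.10 on the log2 scale, with quartiles of -0.35 and 0.12, and 76.4% of genes lay within 0.5 of 0. Scaling by the median ratio in place of the total moved every gene up by 0.10, and then 355 genes were higher and 539 lower, so that 39.7% of the genes past the fold were higher in place of 28.4%. Ratios past 2 or -2 on the log2 scale were fewer, with 39 genes higher and 115 lower.

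**Figure D1:**
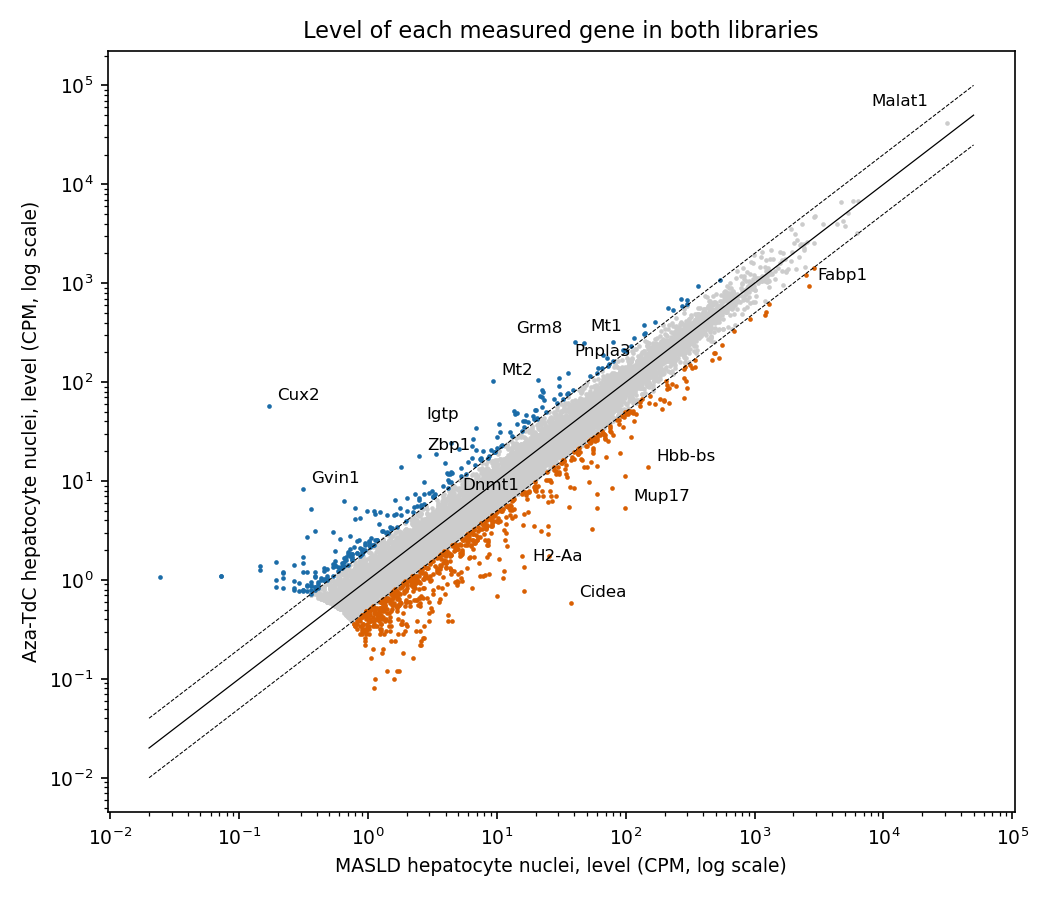
Each point is 1 measured gene, at its level in MASLD hepatocyte nuclei (horizontal) and in Aza-TdC hepatocyte nuclei (vertical), both in CPM on log axes, with genes at least 2 times higher in Aza-TdC in blue and at least 2 times lower in orange. The solid line is equality, the dashed lines are the 2-fold limits, genes at 0 in a library are left out, and Cux2 and Cidea lie farthest from the line among the labelled genes.

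The gene that led the higher side was Cux2, a homeobox transcription factor known for its expression in female mouse liver. It stood at 1.66 CPM in SD (73 UMIs), 0.17 CPM in MASLD (7 UMIs) and 57.1 CPM in Aza-TdC (2835 UMIs). Only the Aza-TdC library was high, and the intervals of the 3 levels did not overlap. The log2 ratio of Aza-TdC over MASLD was 8.40 (7.35 to 9.72). Cux2 UMIs were found in 1930 Aza-TdC nuclei (28.4%), 7 MASLD nuclei (0.116%) and 61 SD nuclei (0.892%). After each nucleus was thinned at random to that same smallest number of UMIs, the shares became 8.53% for Aza-TdC, 0.0166% for MASLD and 0.19% for SD. In endothelial nuclei of the same libraries, called from at least 3 UMIs of Stab2 and Ptprb, Cux2 was at 22.8 CPM in MASLD and 43.0 CPM in Aza-TdC. That ratio, at 0.92 (-0.24 to 2.15), had an interval below the one in hepatocyte nuclei. Cux2 lies on the minus strand at chr5:121856366-122050102 (GRCm38). Its promoter is shown because it has the highest ratio and its start is rich in CG, the letters that DNMT1 methylates. The sequence runs from 250 bases before to 50 after the RefSeq start (GRCm38.p6, chr5:122049802-122050101, minus strand), with each CG in capitals. That start lies 251 bases from the GENCODE start, so the window lies within the gene span given above.

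Cux2: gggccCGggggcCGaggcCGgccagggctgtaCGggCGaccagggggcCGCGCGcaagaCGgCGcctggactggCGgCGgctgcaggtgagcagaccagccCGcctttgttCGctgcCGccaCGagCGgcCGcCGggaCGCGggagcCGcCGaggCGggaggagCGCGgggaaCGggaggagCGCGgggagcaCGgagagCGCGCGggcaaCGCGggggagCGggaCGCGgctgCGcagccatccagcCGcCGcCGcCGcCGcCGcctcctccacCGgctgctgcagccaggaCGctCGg

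This window held 48 CG pairs, where the median of all 20261 RefSeq promoters was 11 and that of the 10664 promoters of measured genes 20. Not all genes with the highest ratios had many CG pairs. The windows of Grm8, Acvr2b, Mt1, Mt2 and Eps8l1 held 33, 27, 24, 24 and 14. Those of Igtp, Olfr56, Tafa1, Gbp3, Tgtp1 and Slc22a26 held 9, 7, 5, 2, 1 and 1. Methylation itself was not measured in these libraries.

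The metallothioneins Mt1 and Mt2, small proteins that bind zinc and copper, were also among the 15 highest ratios. Mt2 was at 36.8 CPM in SD, 9.33 CPM in MASLD and 102 CPM in Aza-TdC, and Mt1 at 127, 47.6 and 247. For both genes MASLD was the lowest library and Aza-TdC the highest, with no overlap of intervals. The ratios were 3.46 (3.31 to 3.61) for Mt2 and 2.37 (2.31 to 2.44) for Mt1. In thinned nuclei, 33.4% of Aza-TdC nuclei (32.3 to 34.6) held a UMI of either gene, against 7.92% in MASLD (7.25 to 8.63) and 20.8% in SD (19.9 to 21.8). The genes are neighbours on chromosome 8, and their promoters are shown for the metal response element, searched as TGCACNC or TGCGCNC on both strands and set in capitals. At least 1 match stands in 28.2% of all promoters. Both are on the plus strand, Mt1 at chr8:94178839-94179138 and Mt2 at chr8:94172368-94172667 (RefSeq, GRCm38.p6).

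Mt1: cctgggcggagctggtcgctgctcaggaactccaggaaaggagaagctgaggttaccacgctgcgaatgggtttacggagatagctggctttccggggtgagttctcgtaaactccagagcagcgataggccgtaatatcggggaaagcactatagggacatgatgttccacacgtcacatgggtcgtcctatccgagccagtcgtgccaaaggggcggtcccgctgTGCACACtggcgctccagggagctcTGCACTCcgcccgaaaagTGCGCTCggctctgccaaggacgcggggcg
Mt2: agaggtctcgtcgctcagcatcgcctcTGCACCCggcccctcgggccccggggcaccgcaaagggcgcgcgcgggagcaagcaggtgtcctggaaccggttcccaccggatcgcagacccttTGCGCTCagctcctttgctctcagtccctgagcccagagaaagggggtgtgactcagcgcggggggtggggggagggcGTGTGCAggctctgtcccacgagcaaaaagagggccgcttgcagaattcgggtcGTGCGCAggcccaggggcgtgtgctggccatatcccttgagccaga

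The Mt1 window held 3 matches and the Mt2 window 4, which is a description of the letters and not of bound sites. The other 20 measured genes of the list of metallothioneins, hepcidin and iron handling were past the fold in 1 case. Fth1, the ferritin heavy chain, was at 94.2 CPM in SD, 290 CPM in MASLD and 141 CPM in Aza-TdC, a ratio of -1.04. It was under the fold with median-ratio scaling (-0.94), matched mitochondrial share (-0.77) and length centring (-0.85). Hamp, which encodes hepcidin, the hormone that limits iron export, was at 1944 CPM in SD, 933 CPM in MASLD and 1644 CPM in Aza-TdC, a ratio of 0.82 (0.80 to 0.83).

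Interferon-inducible GTPases, which guard cells against intracellular microbes, were the list with the highest median. Of 14 measured members 10 were at least 2 times higher in Aza-TdC and 0 lower, with a median log2 ratio of 1.57 against -0.10 for all genes. Of the 18 members of the list, 17 were in the files, and the 3 that were not measured (Tgtp2, Gbp9 and Gbp5) had fewer than 50 UMIs. Gvin1 was at 1.73 CPM in SD, 0.31 CPM in MASLD and 8.30 CPM in Aza-TdC, a ratio of 4.72 (3.93 to 5.65). Igtp was at 5.67, 6.89 and 34.7 CPM, a ratio of 2.33 (2.15 to 2.52), and Gbp3 at 0.62, 0.65 and 6.31 CPM, a ratio of 3.27 (2.70 to 3.90). For these genes the Aza-TdC library alone was high, and the SD and MASLD intervals overlapped for Gbp3. Tgtp1 had 1 UMI in MASLD and 53 in Aza-TdC, so its ratio of 5.46 had an interval of 2.92 to 10.80. Iigp1, with the most UMIs of the list, was at 69.9, 110 and 232 CPM, a ratio of 1.08 (1.03 to 1.13). The members under the fold were Ifi47, Gbp8, Gbp2 and Irgm1, with ratios of 0.98, 0.88, 0.65 and 0.61. The summed level of the list was 115 CPM in SD, 169 CPM in MASLD and 425 CPM in Aza-TdC. In thinned nuclei, 41.1% of Aza-TdC nuclei held a UMI of the list (39.9 to 42.2), against 21.1% in MASLD (20.1 to 22.2), and 5.0% against 0.464% held 3 or more.

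Near-identical GTPase copies may share reads, and Igtp and Irgm2 overlap on the same strand of chromosome 11, so that single members are less certain than the group. Olfr56, an olfactory receptor gene among the 15 highest at 0.15 CPM in MASLD and 1.39 in Aza-TdC, spans Ifi47, Tgtp1 and Tgtp2 on chromosome 11, and its reads cannot be told apart from theirs with certainty. Macrophage nuclei, called from at least 3 UMIs of Clec4f, Cd5l and Adgre1, numbered 125 in MASLD and 249 in Aza-TdC. Among the hepatocyte nuclei the macrophage genes Clec4f and Marco were at 3.89 and 0.27 CPM in MASLD and at 7.47 and 1.41 CPM in Aza-TdC. Clec4f is among the genes that the hepatocyte rule limits, so its level is what that limit left. The whole list of Kupffer and macrophage genes had 1 higher and 4 lower of 12 measured members. Its summed level in hepatocyte nuclei was 52.9 CPM in MASLD and 34.0 CPM in Aza-TdC. In macrophage nuclei Gvin1 was at 33.2 CPM in MASLD and 85.8 in Aza-TdC, Gbp3 at 14.5 and 50.9, and Igtp at 10.4 and 19.8. In Aza-TdC the macrophage level was above the hepatocyte level for Gvin1 and Gbp3 and below it for Igtp. In endothelial nuclei Gvin1 was at 12.4 and 64.5 CPM, Gbp3 at 4.14 and 57.3, and Igtp at 6.21 and 35.8, each from 27 or fewer UMIs. The part of such cells in the hepatocyte ratios was not tested. With nuclei that held 0 UMIs of the 9 marker genes, 8 of 11 measured GTPases were higher and the median was 1.83.

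The promoters of Igtp, Gbp3 and Gbp7 are shown for the interferon response element, searched as GAAA NN GAAA, with any bases at NN, on both strands and set in capitals, overlaps included. They were chosen after their values were seen. Igtp is at chr11:58199306-58199605, Gbp3 at chr3:142559794-142560093 and Gbp7 at chr3:142530086-142530385, all on the plus strand (RefSeq, GRCm38.p6).

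Igtp: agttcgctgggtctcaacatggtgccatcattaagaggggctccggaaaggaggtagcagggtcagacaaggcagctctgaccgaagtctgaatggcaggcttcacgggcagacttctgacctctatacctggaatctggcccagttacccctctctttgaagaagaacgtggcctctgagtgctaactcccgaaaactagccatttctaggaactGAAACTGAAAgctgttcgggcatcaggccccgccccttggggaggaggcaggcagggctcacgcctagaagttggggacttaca
Gbp3: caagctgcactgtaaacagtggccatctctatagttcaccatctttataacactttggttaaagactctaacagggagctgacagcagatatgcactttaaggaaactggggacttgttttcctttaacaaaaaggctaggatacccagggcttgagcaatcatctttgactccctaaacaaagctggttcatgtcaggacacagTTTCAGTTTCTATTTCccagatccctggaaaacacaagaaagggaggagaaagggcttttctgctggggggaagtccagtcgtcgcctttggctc
Gbp7: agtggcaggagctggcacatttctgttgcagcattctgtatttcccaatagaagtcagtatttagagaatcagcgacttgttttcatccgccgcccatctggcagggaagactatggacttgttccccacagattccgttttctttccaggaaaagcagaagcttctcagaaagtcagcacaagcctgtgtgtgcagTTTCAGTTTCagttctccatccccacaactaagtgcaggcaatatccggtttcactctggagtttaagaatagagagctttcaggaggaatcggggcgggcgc

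The letters stood in 9 of the 10 GTPase promoters with an entry, in 13 of 21 promoters of the type I interferon list and in 3.35% of all promoters. No promoter of the 14 major urinary protein genes with an entry held them. These lists have 18, 29 and 22 members, so the members without an entry are not covered. The RefSeq starts of Irgm2 and Tgtp1, whose windows held a match, lay 15359 and 1926 bases from the GENCODE start of the gene.

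Genes of the type I interferon response were higher in 7 of 24 measured members and lower in 1, with a median of 0.64. Zbp1, a sensor of Z-form nucleic acid, was at 0.89 CPM in SD, 2.47 CPM in MASLD and 17.8 CPM in Aza-TdC, a ratio of 2.85 (2.56 to 3.16). Irf7, the transcription factor that amplifies interferon production, was at 7.72, 4.13 and 12.2 CPM, a ratio of 1.56 (1.31 to 1.81), or 0.86 without nuclei holding a hemoglobin UMI, and Usp18, which limits interferon receptor signalling, at 5.04, 10.6 and 31.2 CPM, a ratio of 1.55. Isg15 and Ifit1, widely used interferon markers, had ratios of 0.33 and 0.42, and Cxcl10, a chemokine, was lower at -1.41. With nuclei matched for a low mitochondrial share (at most 0.0816%, 586 nuclei in MASLD and 3392 in Aza-TdC), 3 of 18 measured members were higher and the median was 0.47, and with thinned nuclei 3 of 16.

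Antigen presentation genes had 3 higher and 4 lower of 22 measured, with a median of 0.29. The class I genes H2-Q7 and H2-Q6 and their activator Nlrc5 were the 3 higher ones. H2-Q7 was at 39.1 CPM in SD, 30.6 CPM in MASLD and 110 CPM in Aza-TdC, a ratio of 1.85 (1.76 to 1.94), and Nlrc5 at 95.3, 80.2 and 164 CPM, a ratio of 1.03 (0.97 to 1.09). The H2-Q genes are close copies, so their split is uncertain. The class II genes H2-Aa, H2-Ab1 and H2-Eb1 and the invariant chain Cd74 were the 4 lower ones. The other class I genes measured were under the fold, as H2-K1 at 0.54 and H2-D1 at 0.38. H2-Aa was at 1.37 CPM in SD, 16.2 CPM in MASLD and 1.35 CPM in Aza-TdC, a ratio of -3.58 (-3.97 to -3.22), and Cd74 at 2.78, 36.5 and 5.50 CPM, a ratio of -2.73 (-2.92 to -2.55). The class II UMIs were held by few nuclei: 84.1% of them in thinned MASLD nuclei lay in the top 1% of nuclei, and a single nucleus held 89. In macrophage nuclei H2-Aa was at 282 CPM in MASLD and 68.8 in Aza-TdC, and the part of such cells in the hepatocyte values was not tested. With nuclei matched for mitochondrial share the Cd74 ratio was -1.26.

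**Figure D2:**
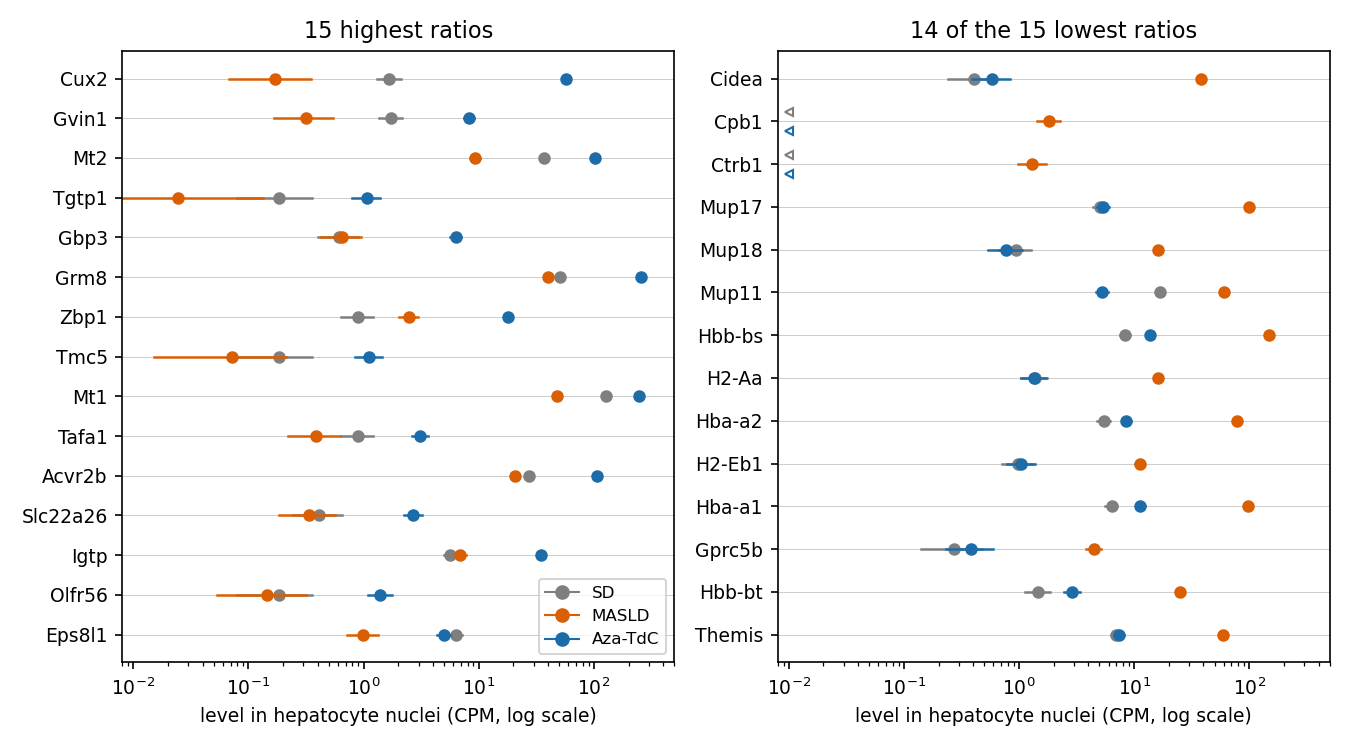
Levels of the genes with the 15 highest ratios (left) and of 14 of the 15 with the lowest ratios (right), in CPM on a log axis, in SD (grey), MASLD (orange) and Aza-TdC (blue) hepatocyte nuclei, with bars for the counting interval and open triangles for 0 UMIs. On the right the MASLD point is the highest for each gene, as for Cidea at 37.8 CPM, and on the left the Aza-TdC point lies above the MASLD point for each gene.

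Other genes among the 15 highest ratios were Grm8, a metabotropic glutamate receptor, and Acvr2b, an activin receptor. Grm8 was at 51.1 CPM in SD, 40.4 CPM in MASLD and 257 CPM in Aza-TdC, a ratio of 2.67 (2.60 to 2.74). Acvr2b was at 27.5, 20.7 and 105 CPM, a ratio of 2.35 (2.24 to 2.46). Both were high in the Aza-TdC library alone, and 26.2% of thinned Aza-TdC nuclei held a Grm8 UMI against 5.47% in MASLD. Grm8 was also higher in other nuclei of Aza-TdC. It was at 6.22 CPM in MASLD and 77.3 in Aza-TdC macrophage nuclei, and its ratio in endothelial nuclei was 2.25 (1.11 to 3.58). The Acvr2b ratio was 1.79 (0.40 to 3.41) in endothelial nuclei and 0.641 (-0.242 to 1.615) in macrophage nuclei. Tafa1, Slc22a26, an organic anion transporter, and Tmc5 were at low levels, between 0.07 and 0.39 CPM in MASLD and between 1.11 and 3.10 CPM in Aza-TdC. Eps8l1, an actin regulator, was at 6.38 CPM in SD, 0.99 CPM in MASLD and 4.96 CPM in Aza-TdC, so that Aza-TdC lay closer to SD than to MASLD.

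Genes that write, read or erase DNA methylation were all under the fold, with 0 of 15 measured members higher, 0 lower and a median of 0.06. Dnmt1, the target of the drug, was at 7.72 CPM in SD (339 UMIs), 9.11 in MASLD (377 UMIs) and 9.91 in Aza-TdC (492 UMIs). Its ratio of 0.12 had an interval of -0.08 to 0.32, so a difference in its mRNA was not detectable at this depth, and its protein was not measured. Dnmt3b, a methyltransferase that acts on unmethylated DNA, had the highest ratio of the list at 0.61 (0.31 to 0.92), with 141 UMIs in MASLD and 259 in Aza-TdC. Dnmt3a had a ratio of 0.06, Tet2 of 0.11 and Tet3, like Tet2 an enzyme that oxidizes methylated cytosine, of 0.13. Uhrf1, which guides DNMT1 to new DNA, had 20 and 24 UMIs and was not measured.

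Germline genes that DNA methylation is known to silence were measured in 4 of 28 cases, and 1 was past the fold. Xlr3a, an X-linked gene of a family of close copies, was at 3.30 CPM in SD, 1.64 CPM in MASLD and 4.67 CPM in Aza-TdC, a ratio of 1.51 (1.11 to 1.92). Sycp3, Brdt and Xlr5a had ratios of -0.51, 0.25 and -0.03. Below the 50 UMI limit, Xlr4a had 0 UMIs in SD and MASLD and 31 in Aza-TdC, at least 8.61-fold higher against a floor of 3 counts per library. Xlr4b had 1 UMI in each of SD and MASLD and 42 in Aza-TdC, a ratio of 5.13 (2.57 to 10.47). These Xlr4 copies were chosen after their values were seen. Of the other members, 7 were at 0 UMIs in Aza-TdC and 12 of the list at 0 in MASLD. X-linked genes were 5 of the 271 higher genes (1.85%), where 2.72% of measured genes are X-linked. Imprinted genes had 0 of 20 measured members higher and 2 lower, the latter Meg3, a maternally expressed long RNA, at -1.71 (-0.98 in nuclei with at most 1% mitochondrial UMIs), and Gatm, which makes a creatine precursor, at -1.85.

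On the lower side the lead gene was Cidea, a protein that fuses lipid droplets and is known as a gene of steatotic hepatocytes. It stood at 0.41 CPM in SD (18 UMIs), 37.8 CPM in MASLD (1563 UMIs) and 0.58 CPM in Aza-TdC (29 UMIs). Only MASLD was high, and the SD and Aza-TdC intervals overlapped. The ratio was -6.02 (-6.60 to -5.49), and it ran from -6.20 to -5.76 over the alternatives. In thinned nuclei a Cidea UMI was found in 4.41% of MASLD nuclei and 0.0737% of Aza-TdC nuclei.

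The list of droplet growth, coat and lipase genes had 5 of 19 measured members lower and 1 higher, with a median of -0.54. Cidec, the close relative of Cidea, was at 12.3 CPM in SD, 215 CPM in MASLD and 87.9 CPM in Aza-TdC, a ratio of -1.29 (-1.35 to -1.24). Fitm1, which buds droplets from the endoplasmic reticulum, was at 5.26, 26.0 and 8.02 CPM, a ratio of -1.70 (-1.87 to -1.53). G0s2, an inhibitor of the main triglyceride lipase, and Hilpda, another lipase inhibitor, were at -1.07 and -1.05. Those 2 were no longer past the fold under scaling by the median ratio, which left 3 lower genes. Plin2, the main droplet coat protein, was at 146, 434 and 272 CPM, under the fold at -0.67. For Cidec and Plin2 the Aza-TdC level lay between SD and MASLD, with no overlap of intervals. Pnpla3, a droplet lipase homologue that responds to lipogenic signals, went the other way, at 3.53, 35.8 and 123 CPM, a ratio of 1.78 (1.70 to 1.87). A Pnpla3 UMI stood in 0.556% of thinned SD nuclei, 4.58% of MASLD nuclei and 15.6% of Aza-TdC nuclei.

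Fatty acid uptake and PPARG target genes had 5 of 18 members lower and 1 higher, with a median of -0.49. Fabp1, the liver fatty acid binding protein and the largest loss in CPM, was at 485 CPM in SD, 2662 CPM in MASLD and 929 CPM in Aza-TdC, a ratio of -1.52 (-1.54 to -1.50). Cd36, a fatty acid translocase, was at 9.07, 342 and 208 CPM, under the fold at -0.72 (-0.76 to -0.68), and Pparg itself at 32.9, 115 and 67.9 CPM, a ratio of -0.76. Both stayed above their SD level in Aza-TdC. Fabp2, Fabp4, Mogat1 and Anxa2 were the other lower members, and Fabp5, the higher one, was at 0.55, 4.38 and 9.67 CPM. Fabp1 RNA also differed in nuclei of other cells: it was at 2838 CPM in MASLD and 1149 in Aza-TdC macrophage nuclei, and at 4247 and 1340 CPM in endothelial nuclei. The part of free RNA in the Fabp1 ratio was not tested.

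Fatty acid oxidation and PPARA target genes had 1 higher and 1 lower of 30 members, and de novo lipogenesis genes 1 higher and 1 lower of 18. Their medians were -0.25 and 0.32. Cyp4a10, a fatty acid omega-hydroxylase, was at 36.2, 301 and 622 CPM, a ratio of 1.05 (1.02 to 1.08), and its reads may be shared with close copies. It was under the fold, at 0.93, in nuclei matched for mitochondrial share and at 0.99 without nuclei holding a hemoglobin UMI. Vnn1, a pantetheinase, was at 6.15, 88.4 and 37.9 CPM, a ratio of -1.22. Pklr, the liver pyruvate kinase, was at 631, 200 and 64.6 CPM, a ratio of -1.63 (-1.69 to -1.57), so that Aza-TdC was farther from SD than MASLD was. Fasn, the fatty acid synthase, had a ratio of 0.41, Srebf1 of -0.01 and Scd1 of -0.52. In the FGF21 axis, 0 of 7 measured genes were past the fold. Fgf21, a hormone of the stressed liver, was at 2.73, 67.4 and 42.8 CPM, a ratio of -0.66 (-0.74 to -0.57), and its coreceptor Klb at 79.8, 60.1 and 55.6 CPM, a ratio of -0.11. Fgfr4 had a ratio of -0.27 and Fgfr1, with 31 and 26 UMIs, of -0.52 (-1.33 to 0.28).

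Major urinary protein genes, which encode pheromone carriers that male mouse liver secretes, had 14 of 17 measured members lower and 0 higher, with a median of -2.19. Mup17 was at 5.06 CPM in SD, 98.6 CPM in MASLD and 5.40 CPM in Aza-TdC, a ratio of -4.19 (-4.37 to -4.01). Mup20 was at 158, 1210 and 473 CPM, a ratio of -1.36 (-1.38 to -1.33), and Mup11 at 16.6, 60.0 and 5.30 CPM, a ratio of -3.50. Mup17 in Aza-TdC overlapped SD, Mup20 lay between the other libraries, and Mup11 lay below both. The Mup20 ratio was -0.90, under the fold, in nuclei matched for mitochondrial share. Mup3, Mup21 and Mup22 were the 3 measured members under the fold, at -0.23, 0.45 and -0.89. Many of these genes are close copies in a cluster on chromosome 4, so a single member's value is uncertain. Their summed level depends less on how reads are split among copies. That sum was 733 CPM in SD, 2066 CPM in MASLD and 1038 CPM in Aza-TdC, a fall just under the 2-fold limit. Mup20 alone made up 1210 CPM of it in MASLD and 473 CPM in Aza-TdC. Mup17 was also lower in macrophage nuclei, at 102 CPM in MASLD and 5.66 in Aza-TdC, and in endothelial nuclei, at 211 and 16.7. With nuclei matched for mitochondrial share, 6 of 10 measured members were lower and the median was -1.89.

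The wider sex-biased lists held 5 lower and 0 higher of 21 male-biased genes and 1 lower and 2 higher of 13 measured female-biased genes, with medians of -0.61 and 0.25. Of the 5 lower male-biased genes, 4 were the Mup genes Mup17, Mup11, Mup7 and Mup20, and the fifth was Selenbp2, a selenium-binding protein, at 14.3, 7.28 and 1.47 CPM. Cyp2d9 and Slco1a1, further male-biased genes, had ratios of -0.06 and 0.17. The 2 higher female-biased genes were Cux2 and Cyp2c40, the latter with 8 UMIs in MASLD and 42 in Aza-TdC. Among regulators of growth hormone signalling, Onecut1 was at 517, 150 and 61.2 CPM, a ratio of -1.30 (-1.36 to -1.24). Cish, a feedback inhibitor induced by STAT5, was at -1.07, and Tox, a chromatin factor, was at 762, 1289 and 613 CPM, a ratio of -1.07. Median-ratio scaling put both at -0.97, under the fold.

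**Figure D3:**
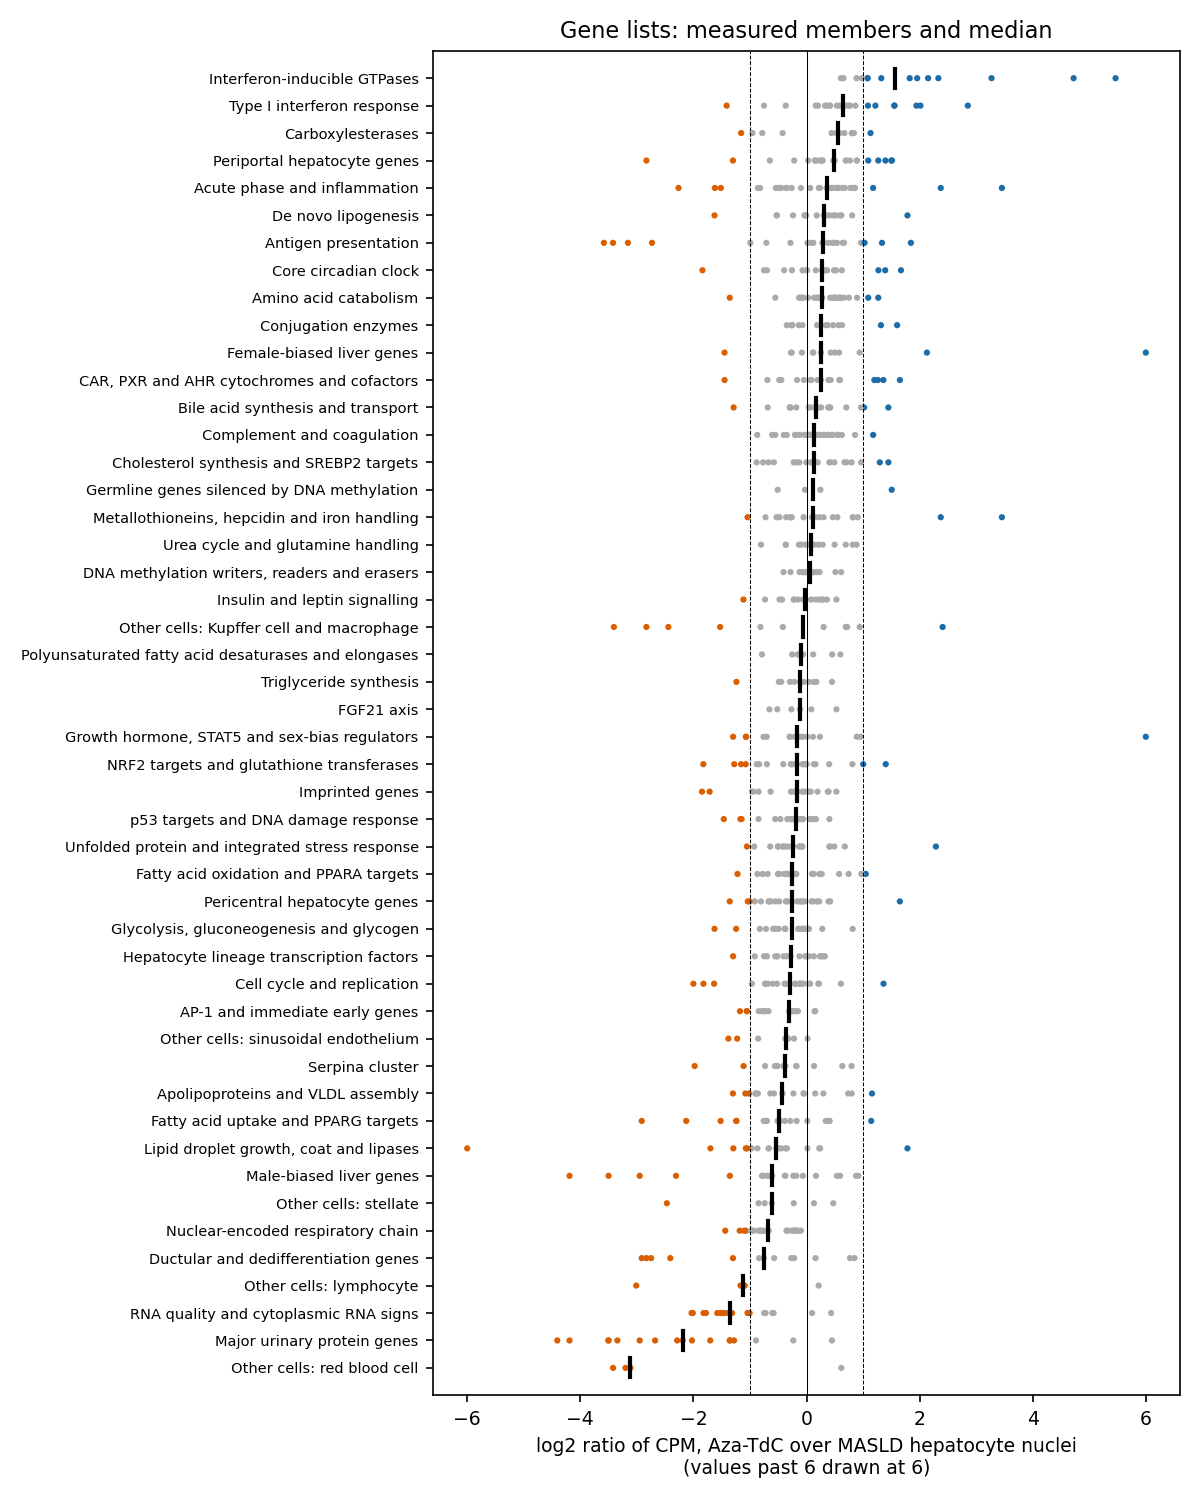
Each point is the log2 ratio of 1 measured gene (horizontal, Aza-TdC over MASLD hepatocyte nuclei) in each of 48 gene lists (rows, ordered by median), in blue or orange past the dashed limits at 1 and -1, with a black bar at the list median. The GTPase list lies at the top with a median of 1.57, and major urinary protein and red blood cell genes lie at the bottom with -2.19 and -3.12.

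Periportal hepatocyte genes had 5 of 24 members higher and 2 lower, with a median of 0.48, and pericentral genes 1 higher and 3 lower of 24, with a median of -0.25. Etnppl, an enzyme of ethanolamine phosphate breakdown, was at 213 CPM in SD, 66.3 CPM in MASLD and 187 CPM in Aza-TdC, a ratio of 1.50 (1.44 to 1.56). Sds, serine dehydratase, was at 778, 275 and 586 CPM, a ratio of 1.09 (0.99 without nuclei of the layer next to the central vein), and Gldc, of glycine cleavage, at 105, 115 and 277 CPM, a ratio of 1.27. Ctsc and Pigr were the other higher members. Apoa4 and Spp1 were the lower ones. Nuclei with at least 2 UMIs over Glul, Slc1a2, Lgr5 and Rhbg, genes of the hepatocyte layer next to the central vein, made up 18.0% of SD, 18.9% of MASLD and 10.9% of Aza-TdC hepatocyte nuclei. Glul, glutamine synthetase, was at 219 CPM in MASLD and 126 in Aza-TdC over all hepatocyte nuclei, a ratio of -0.81. Within that layer it was at 855 and 841 CPM, a ratio of -0.02 (-0.07 to 0.03), though Glul is among the genes that defined the layer. Airn, an imprinted long RNA that was not used to define it, was at -0.94 over all nuclei and at 0.03 (-0.04 to 0.10) within the layer. Outside the layer Airn was at -1.24 (-1.30 to -1.18) and Glul at -0.86 (-0.99 to -0.73), so both were also lower there. Without the layer 269 genes were higher and 651 lower, close to the numbers with it.

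Lead genes were seen on both sides of that division. Cux2 in Aza-TdC was at 30.8 CPM in the layer and 61.0 CPM outside it, and Cidea in MASLD at 54.0 and 33.1 CPM. The Igtp ratio was 2.67 (2.26 to 3.10) in the layer and 2.27 (2.06 to 2.48) outside, with overlapping intervals. The Mt1 ratio was 1.82 (1.62 to 2.02) in the layer and 2.35 (2.28 to 2.43) outside, and those intervals did not overlap. Tox was at -0.36 (-0.39 to -0.32) in the layer and at -1.20 (-1.22 to -1.17) outside.

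**Figure D4:**
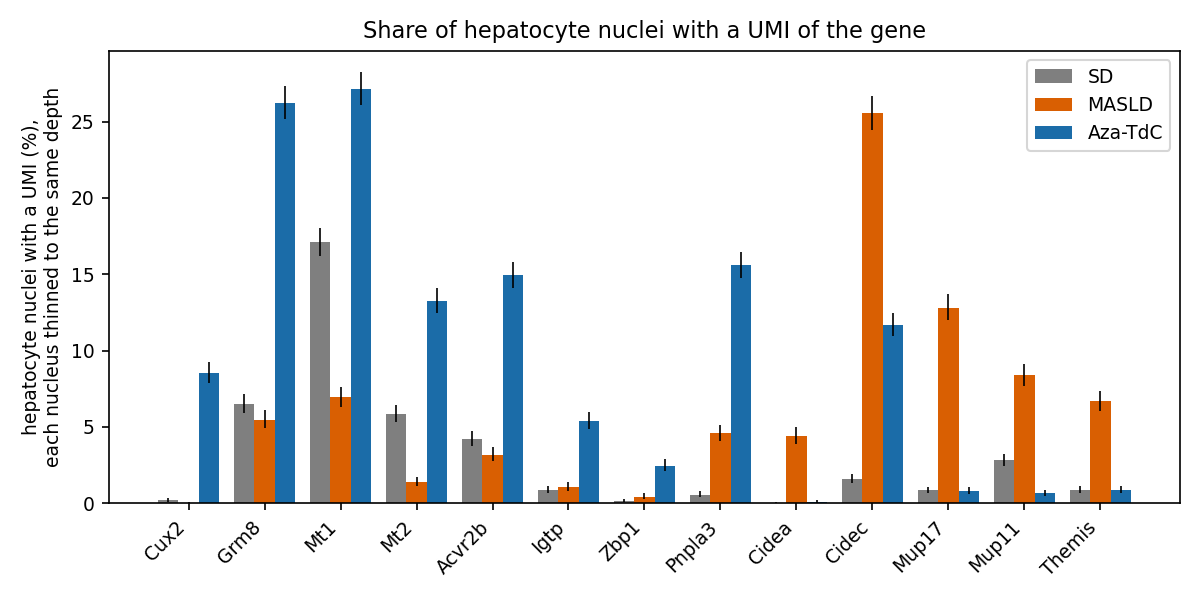
Share of hepatocyte nuclei with at least 1 UMI of a gene (percent, vertical) for 13 genes, in SD (grey), MASLD (orange) and Aza-TdC (blue), each nucleus thinned to the same number of UMIs, with exact binomial intervals. Cux2 and Grm8 reach 8.53% and 26.2% in Aza-TdC, while Cidea and Mup17 are high in MASLD alone.

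Core clock genes had 3 higher and 1 lower of 19, with a median of 0.27. Among the higher ones, Arntl, the core activator also called Bmal1, was at 9.46 CPM in SD, 5.97 CPM in MASLD and 15.7 CPM in Aza-TdC, a ratio of 1.39, and Cry1, a repressor, at 1.27. In matched nuclei Arntl was at 0.73 and Cry1 at 0.89, both under the fold. Bhlhe41, another repressor, was lower at -1.84. The sources used here do not give the hour of tissue collection, and its part in these ratios was not tested.

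Cytochromes and cofactors of the CAR, PXR and AHR receptors, which sense foreign compounds, had 4 higher and 1 lower of 19 measured members, with a median of 0.25. Cyp3a11, a classic PXR target, was at 108, 269 and 689 CPM, a ratio of 1.36 (1.33 to 1.39), and Cyp2c29, a CAR target, at 201, 168 and 403 CPM, a ratio of 1.26. Cyp2c54 and Cyp3a13 were also higher, and all of these belong to families of close copies. Conjugation enzymes had 2 of 14 higher, Sult5a1 at 1.60 and Ugt1a9 at 1.32, or 0.87 in nuclei matched for mitochondrial share. Bile acid genes had 2 higher and 1 lower of 20. Akr1d1, a reductase of bile acid synthesis, was at 263, 138 and 375 CPM, a ratio of 1.45, and Nr0b2, the nuclear receptor SHP that represses that synthesis, was at 1.02, or 0.78 in matched nuclei. Hsd3b7 was the lower one at -1.29. Cholesterol synthesis genes had 2 higher of 22, among them Sqle, squalene epoxidase, at 1.45 (1.14 to 1.77). Fdps, of the same pathway, had a ratio of -0.88.

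Apolipoprotein and lipoprotein assembly genes had 3 lower and 1 higher of 18, with a median of -0.43. Apoa4 was at 11.2, 488 and 198 CPM, a ratio of -1.30, Apoc3 at 401, 688 and 325 CPM, a ratio of -1.08, and Apoa2 at 1004, 2876 and 1420 CPM, a ratio of -1.02. Tm6sf2, which helps to load lipid onto lipoproteins, was higher at 1.16. Scaling by the median ratio left 1 lower gene, and with nuclei matched for mitochondrial share and centred for gene length 0 were lower and the median was 0.09, on the other side of 0. Nuclear-encoded respiratory chain genes had 4 lower of 26, with all 26 below 0 and a median of -0.68. Cytochrome c, encoded by Cycs, was at 26.0, 45.2 and 16.7 CPM, a ratio of -1.44. With nuclei matched for mitochondrial share 1 of the 26 was lower and the median was -0.43. In both lists the genes are short, and short genes, the mitochondrial share and cytoplasmic RNA moved in the same direction, as given below.

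Glucose metabolism genes had 2 lower of 22, Pklr and Gys2, the liver glycogen synthase, the latter at 462, 328 and 138 CPM, a ratio of -1.25. G6pc, glucose-6-phosphatase, was at 1198, 457 and 258 CPM, under the fold at -0.83. Acute phase genes had 3 higher and 3 lower of 32. Besides Mt1 and Mt2 the higher gene was Fgg, a fibrinogen chain, at 209, 296 and 670 CPM, a ratio of 1.18, and the lower ones included Orm2 and Saa2 at -2.26 and -1.62. In nuclei matched for mitochondrial share the Saa2 ratio was -0.57. Stress genes were past the fold in few cases: Asns, asparagine synthetase, was at 2.29 and Atf3 at -1.05 among 21, and Gdf15, a stress hormone, was at 6.27, 57.3 and 25.5 CPM, a ratio of -1.17. Median-ratio scaling gave -0.95 for Atf3 and length centring -0.88 for Gdf15, both under the fold. Cell cycle genes had 1 higher and 3 lower of 27. Mki67, Cenpe and Cenpf were the lower ones, each with 33 or fewer UMIs in Aza-TdC. In macrophage nuclei Mki67 was at 277.8 CPM in MASLD and 21.69 in Aza-TdC, Cenpe at 109.9 and 8.486, and Cenpf at 70.49 and 2.829. In nuclei with at most 1% mitochondrial UMIs the Mki67 and Cenpf ratios shrank to -1.207 and -1.221, and Cenpe was not measured. The part of macrophages in these hepatocyte ratios was not tested. Tk1, thymidine kinase, was higher at 36.2, 15.9 and 40.9 CPM, a ratio of 1.36.

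The largest gains in CPM were in abundant transcripts under the 2-fold limit. Malat1, a nuclear long RNA, was at 51430 CPM in SD, 30950 CPM in MASLD and 41840 CPM in Aza-TdC, a ratio of 0.44. With nuclei matched for mitochondrial share that ratio was -0.01, on the other side of 0. Alb was at 6023, 4720 and 6643 CPM, Cps1, the first enzyme of the urea cycle, at 5140, 2905 and 4696 CPM, and Fmo5 at 2937, 2918 and 4810 CPM, with ratios of 0.49, 0.69 and 0.72. The largest losses besides those named were Immp2l, Ttr, Scp2, Mgst1 and Apoe, with ratios between -1.25 and -0.40. With matched mitochondrial share and length centring Apoe turned to 0.18, on the other side of 0, and Ttr, at -0.77 in all nuclei, was at -0.22.

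Genes of other cells were also read among these nuclei. Hemoglobin genes, made by red blood cells, were lower in 4 of 4 cases. Hbb-bs was at 8.29 CPM in SD, 148 CPM in MASLD and 13.8 CPM in Aza-TdC, a ratio of -3.42 (-3.54 to -3.31), and it was also lower in macrophage nuclei, at 261 and 32.1 CPM. Without nuclei that held a hemoglobin UMI, which left 1264 nuclei in MASLD and 5351 in Aza-TdC, Cidea was at -6.07, Mup17 at -3.78, Cux2 at 8.85 and Igtp at 2.26. Ductular and dedifferentiation genes had 5 lower of 13, with a median of -0.76. They were Anxa2, Spp1, Ly6d, Krt23 and Anxa5, at ratios between -2.91 and -1.30, each with at most 28.9 CPM in MASLD. The bile duct markers Krt19, Krt7 and Epcam had 22 or fewer UMIs in either library. Kupffer and macrophage genes had 1 higher and 4 lower of 12, with a summed level of 10.2 CPM in SD, 52.9 CPM in MASLD and 34.0 CPM in Aza-TdC. Gpnmb, Spp1, Lyz2 and Ctss were lower and Marco was higher. Sinusoidal endothelial genes had 2 lower of 8, at sums of 344 and 289 CPM in MASLD and Aza-TdC, and stellate genes 1 lower of 7, at sums of 19.8 and 10.3 CPM. Stab2 (-1.23) and Reln (-2.47) were among these lower genes, and both belong to the 9 genes that the hepatocyte rule limits. Levels of those 9 genes are what the limit of 2 UMIs left, so they are not a free measure of other cells. The part of other cells in the hepatocyte ratios was not tested.

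Themis, a gene of T cell development, was at 6.995 CPM in SD, 59.6 CPM in MASLD and 7.39 CPM in Aza-TdC, a ratio of -3.01 (-3.17 to -2.85). It was found in 6.68% of thinned MASLD nuclei. Lymphocyte genes had 4 lower and 0 higher of 5 measured, with a median of -1.12 and a summed level, Themis included, of 16.2 CPM in SD, 72.5 CPM in MASLD and 14.4 CPM in Aza-TdC. Ptprc, a surface phosphatase of white blood cells, was at 7.37 CPM in MASLD and a ratio of -1.17, or -0.04 in nuclei with at most 1% mitochondrial UMIs, and Cd3e had 13 UMIs in MASLD. Themis made up 59.6 of the 72.5 CPM of the list in MASLD, and it differed from Ptprc in other ways. In nuclei with at most 1% mitochondrial UMIs the Themis ratio was -2.997. In MASLD, Themis was at 116.4 CPM in the layer next to the central vein and 43.19 outside it. Ptprc was at 3.451 and 8.507 CPM there. In SD, Themis was at 17.96 CPM in that layer and 4.003 outside. The part of lymphocytes in the ratios of this list was not tested. Gprc5b was at 0.27 CPM in SD, 4.47 CPM in MASLD and 0.38 CPM in Aza-TdC. Cpb1 and Ctrb1, pancreatic digestive enzymes, had 75 and 54 UMIs in MASLD and 0 in the other libraries, at least 30.0-fold and 21.6-fold lower in Aza-TdC against a floor of 3 counts per library. The Cpb1 UMIs came from 4 nuclei and the Ctrb1 UMIs from 21, so they do not describe the hepatocytes at large.

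Gene length and cytoplasmic RNA moved with the comparison as a whole. The median ratio was -0.28 in the shortest of 10 groups of genes by length, up to 3808 bases from start to end, and 0.00 in the ninth group by length. Genes at least 2 times lower were 7.75% of the shortest group and 7.47% of the longest. The list of signs of RNA quality, made of mitochondrial and abundant cytoplasmic transcripts, had 12 of 18 members lower and a median of -1.35, with mt-Cytb at 94.8, 282 and 68.9 CPM. With nuclei matched for mitochondrial share, 2 of 18 were lower and the median was -0.42. After centring on the median of each length group, 383 genes were higher and 518 lower. With both steps 406 were higher and 314 lower, so that which side had more genes depended on these choices. Cux2, whose ratio was 7.07 at its lowest over the alternatives, kept its direction in all of them, as did Cidea, Mt1, Mt2, Igtp and Mup17. Some alternatives, namely the minimum counts and the rescalings, could not have changed the direction of these genes. Among genes with a promoter entry, the median window held 7 CG pairs for higher, 10 for lower and 20 for all measured genes. A firm comparison of the sets was not possible. Entries covered 69.0% of higher, 70.5% of lower and 74.4% of all measured genes, under the 80% needed.

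**Figure D5:**
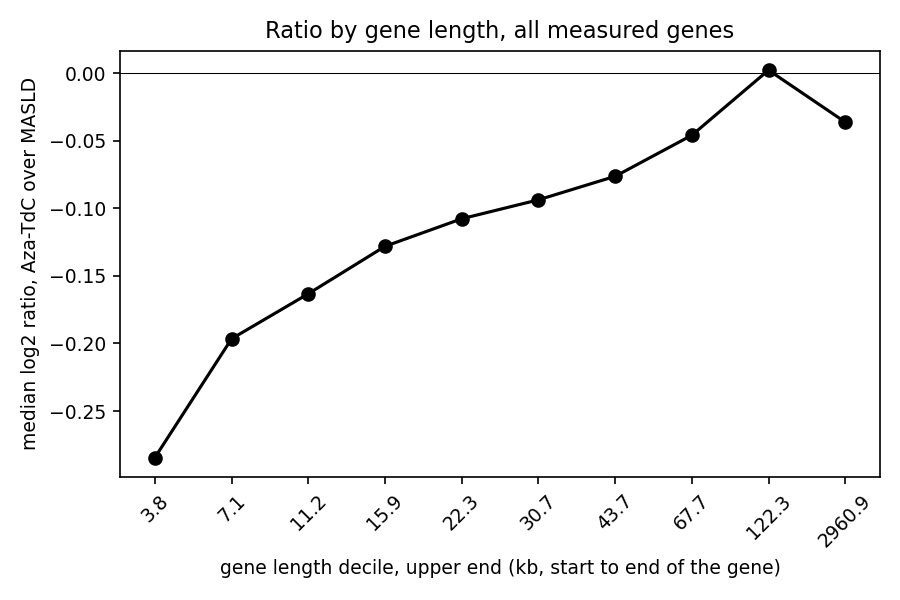
Median log2 ratio of Aza-TdC over MASLD hepatocyte nuclei (vertical) for all measured genes in 10 groups by gene length, labelled by the upper end in kb (horizontal). The median climbs from -0.28 in the shortest group to 0.00 in the ninth and is -0.04 in the longest.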

How the data were processed

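Nuclei from frozen mouse liver were sorted and sequenced with 10x Genomics 3' chemistry in 3 libraries, 1 per group, per the labels' protocols. The authors deposited raw counts of UMIs for each gene in each nucleus; Cell Ranger 6.1.2 and Seurat 4.4.0 are named in the submitters' processing notes, and the sources used here name no removal of free RNA or doublets. No doublet caller was run. The gene totals of hepatocyte nuclei (41364145 UMIs in MASLD, 49637517 in Aza-TdC) were scaled to CPM with Python 3.11.15, numpy 2.4.6, scipy 1.17.1 and pandas 2.3.3. Ratios have exact conditional binomial intervals, levels exact Poisson intervals and shares exact Clopper-Pearson intervals, all at 95%, and the calculation was tested on simulated data. UMIs are molecules, but intervals cover counting error only. Coordinates and lengths come from GENCODE (32158 of 32285 features found) and promoters from RefSeq, GRCm38.p6. Members, 48 gene lists and rules were chosen with earlier results of these data known. Named genes were the 15 highest and 15 lowest ratios among genes whose higher library held 50 UMIs or more, ranked by whichever end of the interval is closer to 0, the 8 largest CPM gains and losses, up to 4 members per list, and the regulators Dnmt1, Dnmt3a, Dnmt3b, Uhrf1, Tet2, Tet3, Fgf21, Klb, Fgfr1, Fgfr4, Cux2, Cidea, Cidec and Cd36; other list members are named where a group is described. Promoters of the lowest genes were left out of print. There were 12 alternative settings of filters, scaling and minimum counts, and 3 added after seeing the data: length centring, leaving out nuclei with a hemoglobin UMI, and length centring with matched mitochondrial share. A few named genes are not reported here.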

Additional observations from a re-analysis of the deposited data

How the results depend on the processing

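No paired analysis was possible because each group has 1 library. The number of genes at least 2 times lower was 429 with nuclei thinned to equal depth, and 1046, with 427 higher, at a minimum of 20 UMIs. With matched mitochondrial share and length centring, an alternative added after seeing the data, 314 were lower. The median of all genes is 0 by construction with median-ratio scaling, length centring, and length centring with matched mitochondrial share. With that last setting the ratios of Serpina12, mt-Nd4 and mt-Co2, past the fold with all hepatocyte nuclei, turned to 0.12, 0.025 and 0.044, those of Apoe and Klb, under it, to 0.179 and 0.006, and the median of the RNA quality list to 0.00329; the cause was not tested. Without nuclei holding a hemoglobin UMI the red blood cell list kept 1 measured gene, so its median of 0.753 is that of Alas2. Of 130 named genes past the fold, each kept its sign in the 12 alternatives chosen beforehand wherever it had a value. Some of the 12 could not change a sign. The minimums of 20 and 100 UMIs leave each ratio as it was, and both rescalings add the same small amount to every gene. With matched mitochondrial share 99 of the 130 genes had a value, and 78 of these stayed past the fold. A single library per group, with its unknown number of animals, limits every comparison, and outside the 20 UMI setting genes under 50 UMIs entered no list count or median.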
